A study of Mus musculus with 9 samples.

Results

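The genes described here carry signals from leukaemia inhibitory factor (LIF), oncostatin M, interferon gamma and prolactin into the cell: the receptor genes Lifr, Il6st, Osmr, Ifngr1, Ifngr2 and Prlr, the transcription factor genes Stat3 and Stat5b, and the feedback genes Socs2 and Socs3. They were taken by symbol from the count tables, 10 genes of the 35006 listed, and all 10 passed the filter on low counts. The list was drawn up with the diet comparison of these libraries in view, so the diet values of these 10 genes are given as a description, without p-values. The libraries came from C57BL/6J mice that were housed singly and fed either without limit (ad libitum, AL, 5 libraries) or 70% of the food eaten by AL mice matched in weight and gender (dietary restriction, DR, 4 libraries). In both groups the RNA was from CD34+ alpha6+ cells, the stem cells of the hair follicle bulge, sorted by flow cytometry from pools of 3 mice. Hair graying and the quiescence of these stem cells are the subjects that the series title names. The labels state no age, sex, hair cycle stage or batch for a library, name 2 animal facilities without saying which mice came from which, and do not say that each library came from its own pool of mice. The p-values below therefore measure the spread between these libraries, which may be partly technical.

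Cytokines of these families bind receptor chains that have no enzyme activity of their own and that hold Janus kinases (JAKs) on their inner side. Binding brings the chains together, the kinases phosphorylate them, and STAT proteins dock there, are phosphorylated, pair up and switch on genes in the nucleus, among them the SOCS genes, whose proteins shut the same receptors down. LIF uses LIFR with the shared chain gp130 (Il6st), oncostatin M uses OSMR with gp130, interferon gamma uses a receptor of 2 different chains, and prolactin uses paired copies of PRLR. In skin, STAT3 is known for its part in hair growth and wound repair, and prolactin for its influence on the hair cycle.

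STAT pairs bind DNA at the letters TTCNNNGAA, which read the same on both strands. The 250 bases before and 50 bases after each RefSeq start (GRCm38.p6) were searched for them, and 9 of the 10 genes had such a window; none was at hand for Socs2. A match was found for Socs3 and for Prlr, 2 of the 9 genes (22.2%), against 2582 of 27025 genes with a window in RefSeq (9.55%). The upstream stretch of Socs3 is shown because it holds a match, and those of Lifr and Ifngr1 because these genes differed most between the diets and hold none. They lie at chr11:117969367-117969616 (minus strand), chr15:7129322-7129571 (plus strand) and chr10:19591699-19591948 (plus strand). Capitals mark a match, and each sequence reads 5′ to 3′ towards the start of the gene.
Socs3: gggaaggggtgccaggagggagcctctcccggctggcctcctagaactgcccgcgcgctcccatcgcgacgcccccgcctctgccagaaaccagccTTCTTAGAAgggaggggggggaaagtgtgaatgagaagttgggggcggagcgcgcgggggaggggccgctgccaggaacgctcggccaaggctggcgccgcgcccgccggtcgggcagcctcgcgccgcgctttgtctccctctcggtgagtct
Lifr: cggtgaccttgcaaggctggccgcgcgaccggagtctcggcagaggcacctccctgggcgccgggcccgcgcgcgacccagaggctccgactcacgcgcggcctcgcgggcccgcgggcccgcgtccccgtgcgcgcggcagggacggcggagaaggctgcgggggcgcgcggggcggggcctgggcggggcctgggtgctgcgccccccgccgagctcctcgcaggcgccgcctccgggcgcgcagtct
Ifngr1: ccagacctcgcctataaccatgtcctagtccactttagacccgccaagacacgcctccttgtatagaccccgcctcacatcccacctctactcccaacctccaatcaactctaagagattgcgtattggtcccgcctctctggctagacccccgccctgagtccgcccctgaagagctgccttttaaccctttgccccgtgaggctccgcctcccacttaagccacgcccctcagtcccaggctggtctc
The Socs3 match ends 146 bases before the start. Lifr has 2 listed starts: the window of neither held a match, and the stretch shown is that of the first. Prlr has 3 listed starts, and only the window of the second held a match, at chr15:10223793-10223807 with its flanks (plus strand). Of the other pathway genes with a match, some whose levels come up below are set beside it. They are Cish (chr9:107296656-107296681, plus strand), which holds a pair of matches, Irf1 (chr11:53769921-53769935, plus strand) and Bcl6 (chr16:23988959-23988973, minus strand). A second window of Bcl6 held 3 matches that are not shown, and the window of Socs1, whose level also comes up, held none. Over the other genes of the pathway lists, 16 of 93 with a window held a match (17.2%).
Prlr: gagTTCTAGGAAtaa
Cish: gttTTCCTGGAAagTTCTTGGAAatc
Irf1: gatTTCCCCGAAatg
Bcl6: tagTTCTCAGAAttc
The matches are letters in a window and carry no measurement of binding.

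Libraries held 26119459 to 33559312 counts in genes, and no difference in totals between the diets passed a test (exact two-sided permutation test over all splits, p = 0.548). The number of genes detected gave p = 0.913 by the same permutation test. The share of counts on lines that name no gene averaged 28.3% in AL and 26.3% in DR (same permutation test, p = 0.0476, adjusted p = 0.143 over the library measures). The summed level of 13 bulge markers was 34076 to 50001 CPM (counts scaled to a common library size, by TMM) in AL and 24380 to 26770 in DR, and all 13 were detected. Not all of them fell: 7 passed as lower in DR (edgeR adjusted p under 0.05) and 5 did not pass. Cd200 passed as higher (mean 205 CPM in AL, 325 CPM in DR). Cd34 itself ranged from 531 to 2041 CPM in AL and from 414 to 630 CPM in DR. Summed markers of dividing cells were at 120 to 895 CPM in AL and 18.6 to 50.6 CPM in DR, and fibroblast markers at 85.3 to 141 and 23.0 to 43.6 CPM. The fibroblast markers did not all move together. Of 5 tested, 3 passed as lower in DR, 1 did not pass, and Pdgfra passed as higher (mean 1.07 CPM in AL, 3.02 CPM in DR). Markers of the suprabasal epidermis summed to more, 2109 to 4889 CPM in AL and 2392 to 5807 CPM in DR. They were lowest in AL libraries 4 and 5, and their part in the other values was not tested. The endothelial markers stood apart in AL library 1 (18.1 CPM) and in DR libraries 1 and 2 (37.0 and 22.8 CPM), against 2.18 to 9.16 CPM in the other libraries. The same 3 libraries had the highest leukocyte sums (57.5 to 80.9 CPM against 19.2 to 38.0 CPM). Values without these 3 libraries are given below for the 10 genes and for the counts in the pathway lists.

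Under dietary restriction Lifr, Ifngr1, Osmr, Il6st, Prlr and Socs3 were higher, Socs2 was lower, and Ifngr2, Stat3 and Stat5b were on neither side of the threshold (adjusted p under 0.05 over all 15447 genes tested by edgeR's quasi-likelihood test). That is 6 of 10 genes higher and 1 lower, where 19% of all tested genes were higher and 21.7% were lower. No library of one diet overlapped the other for 4 genes higher in DR and 1 lower, where this held for 15.9% and 17% of all tested genes, 32.9% in all. Since the genes were picked with this contrast known, nothing is read from these counts. Without AL library 1 and DR libraries 1 and 2, 5 were higher and 1 lower, where 13.7% of all tested genes were higher and 15.7% were lower. Prlr lay nearest to the threshold among the genes that passed, and Stat3 among those that did not. In sorted bulk cells, fewer cells of a type and less RNA per cell cannot be told apart.

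**Figure D1:**
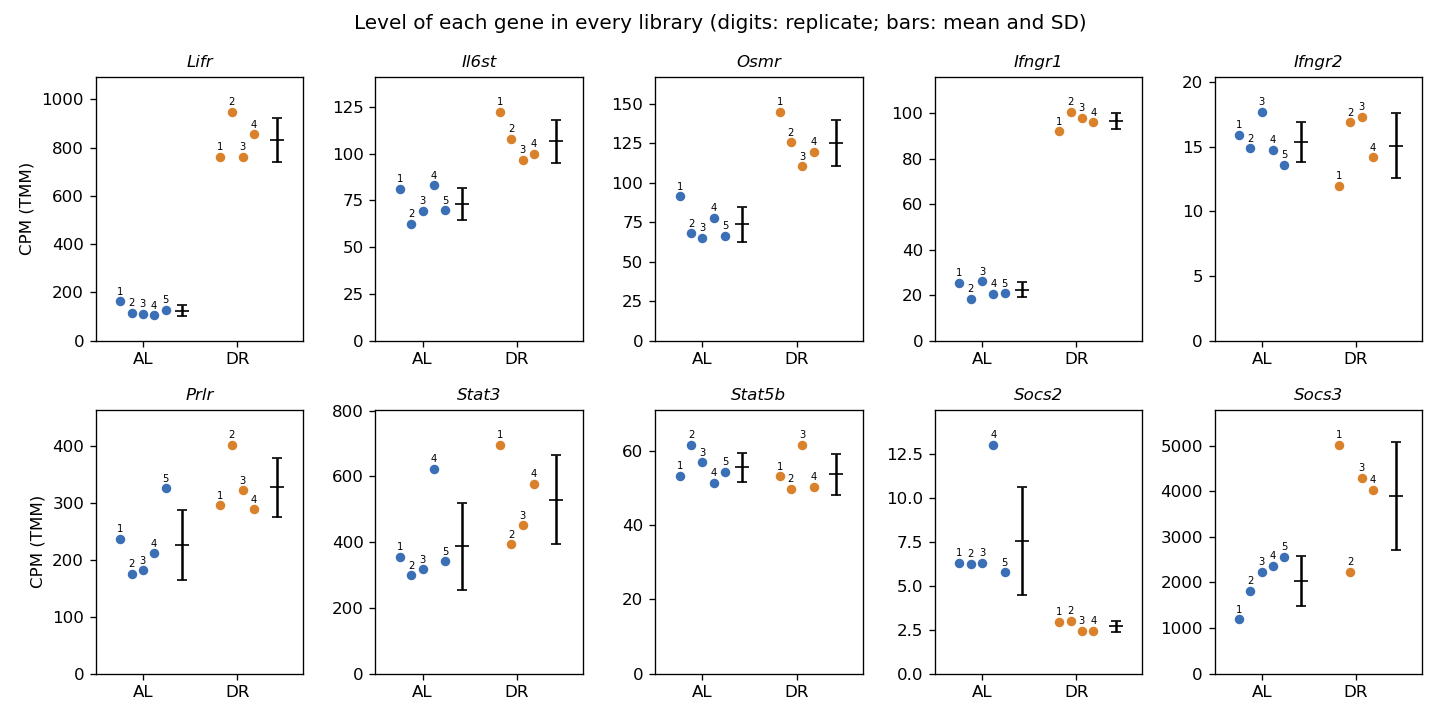
Level of each of the 10 genes (vertical axis, CPM after TMM scaling) in the 5 AL libraries (blue) and the 4 DR libraries (orange), with the replicate number beside each point and the mean and SD as bars. Lifr and Ifngr1 separate widely, Il6st, Osmr and Socs2 separate by less, and the other 5 genes overlap.

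Lifr, the LIF receptor chain, had the largest difference of the set. Its level was 163, 116, 110, 104 and 128 CPM in AL libraries 1 to 5 and 762, 949, 762 and 855 CPM in DR libraries 1 to 4. Every DR library lay far above every AL library, and AL library 1 was the highest of its group. The means were 124 ± 23.3 and 832 ± 89.7 CPM (SD, n = 5 and 4), a log2 fold change (DR over AL) of 2.74 with a standard error (SE) of 0.15, or 6.70-fold. Only 0.337% of the tested genes had a larger log2 fold change.

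Il6st encodes gp130, the signalling chain shared by the receptors for LIF, oncostatin M, IL-6 and IL-11. It was at 81.0, 62.5, 69.4, 83.0 and 69.7 CPM in AL and at 122, 108, 96.5 and 99.99 CPM in DR. The groups did not overlap, but the gap between the highest AL and the lowest DR library was narrow. The mean rose from 73.1 ± 8.65 to 107 ± 11.5 CPM (SD, n = 5 and 4), a log2 fold change of 0.54 (SE 0.11). Osmr, the chain that pairs with gp130 for oncostatin M, showed the same ordering of groups. It was at 91.4, 67.9, 65.0, 78.0 and 66.4 CPM in AL and at 145, 125.7, 111 and 120 CPM in DR, and the groups did not overlap. Its log2 fold change was 0.77 (SE 0.12). For both genes the highest DR library was DR library 1, the one with the highest endothelial markers. Without AL library 1 and DR libraries 1 and 2 the log2 fold changes were 0.47 for Il6st, 0.73 for Osmr and 2.82 for Lifr.

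Ifngr1, the chain that binds interferon gamma, was at 25.4, 18.4, 26.01, 20.5 and 20.8 CPM in AL and at 92.0, 101, 97.8 and 95.9 CPM in DR. The DR libraries lay close together and all far above AL. The means were 22.2 ± 3.30 and 96.6 ± 3.62 CPM (SD, n = 5 and 4), a log2 fold change of 2.12 (SE 0.11) or 4.35-fold, and 2.18 without the 3 libraries high in endothelial markers. Ifngr2, the second chain of the same receptor, brings JAK2 to it. It was at 15.9, 14.9, 17.7, 14.8 and 13.6 CPM in AL and at 12.0, 16.9, 17.3 and 14.2 CPM in DR. The groups overlapped throughout, with a log2 fold change of -0.03 (SE 0.13) whose sign changed when some libraries were left out; it was 0.05 without the 3 libraries high in endothelial markers.

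Prlr, the prolactin receptor, was at 236, 174, 181, 211 and 325 CPM in AL and at 295, 402, 321 and 288 CPM in DR. AL library 5 lay above 3 of the 4 DR libraries, and the other AL libraries lay below them all. The log2 fold change was 0.53 (SE 0.18). It no longer passed without any one of AL libraries 1 to 4 (0.55, 0.47, 0.46 and 0.51) or DR libraries 2 and 3 (0.42 and 0.56), nor without the 3 libraries high in endothelial markers (0.45), and it was 0.70 without AL library 5.

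Stat3, the main STAT of the gp130 receptors, was at 355, 299, 317, 623 and 342 CPM in AL and at 697, 393, 451 and 577 CPM in DR. AL library 4 reached the DR range and the other 4 AL libraries stayed below it. The log2 fold change was 0.45 (SE 0.24) and did not pass. It passed in 1 of 18 other settings, without AL library 4 (0.69), and was 0.29 without DR library 1 and 0.38 without the 3 libraries high in endothelial markers. Stat5b, a STAT of the prolactin and growth hormone receptors, was at 53.4, 61.7, 57.0, 51.6 and 54.5 CPM in AL and at 53.3, 49.9, 61.8 and 50.3 CPM in DR. Its groups overlapped fully (log2 fold change -0.05, SE 0.09; -0.0014 without the same 3 libraries), the tightest estimate of the 10 genes.

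The 2 feedback genes lay on opposite sides. Socs2, best known as a brake on growth hormone signalling, was at 6.32, 6.26, 6.30, 13.04 and 5.76 CPM in AL and at 2.95, 2.99, 2.44 and 2.42 CPM in DR. All DR libraries lay below all AL libraries, and AL library 4 lay well above the rest of its group. The log2 fold change was -1.48 (SE 0.26) and -1.19 without AL library 4. Socs3, the brake on gp130, was at 1191, 1822, 2237, 2362 and 2559 CPM in AL and at 5024, 2230, 4287 and 4027 CPM in DR. DR libraries 1, 3 and 4 lay above every AL library, while DR library 2 fell among them. The means were 2034 ± 543 and 3892 ± 1186 CPM (SD, n = 5 and 4), with a log2 fold change of 0.94 (SE 0.26). Without the 3 libraries high in endothelial markers the values were 0.89 for Socs3 and -1.69 for Socs2.

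**Figure D2:**
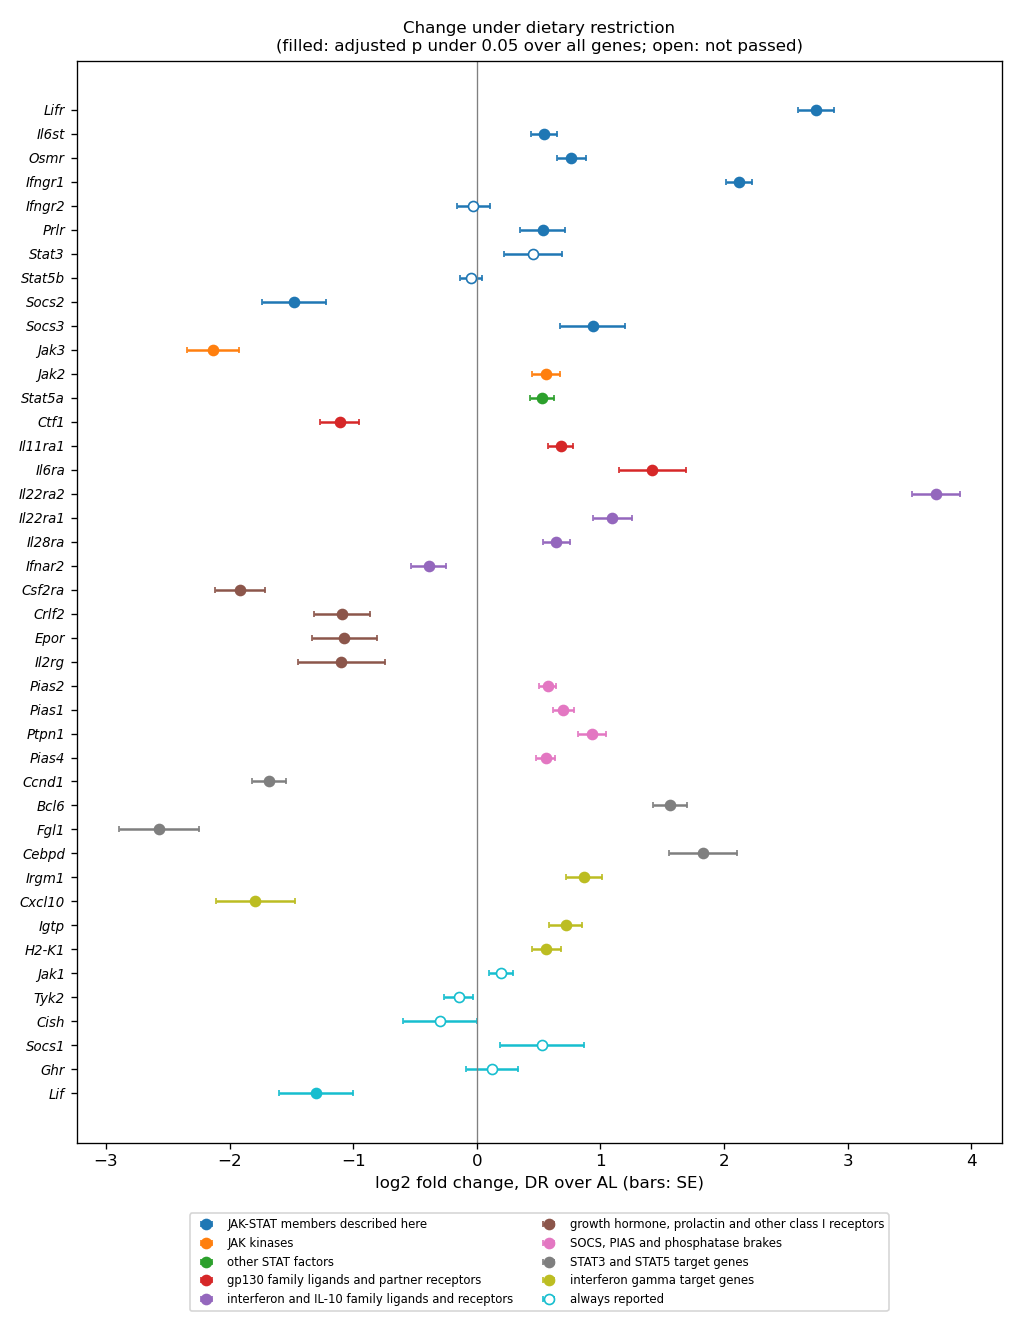
log2 fold change, DR over AL (horizontal axis), with its SE as a bar, for the 10 genes described first and for the named genes of the pathway lists, coloured by list. Filled points passed the threshold and open points did not; Lifr (2.74) and Il22ra2 (3.71) lie farthest to the right and Fgl1 (-2.57) farthest to the left.

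Levels of different genes are compared per kilobase of exon, with exon lengths from a GRCm38 annotation, which may differ from the one used for counting. In AL the order of mean levels was Socs3 (797 CPM per kb), Stat3 (62.2), Prlr (17.2), Osmr (13.4), Lifr (12.0), Ifngr1 (10.5), Stat5b (10.04), Il6st (6.66), Ifngr2 (4.15) and Socs2 (2.79). Each neighbouring pair from Prlr to Stat5b, and Ifngr2 with Socs2, overlapped between libraries. In DR, Lifr (80.1 CPM per kb, range 73.4 to 91.4) moved from the fifth to the third place and overlapped Stat3 (85.1, range 63.1 to 112), and Ifngr1 (45.7) moved to the fourth. Prlr (24.9) and Osmr (22.8) overlapped there, as did Il6st and Stat5b (both 9.72), followed by Ifngr2 (4.07) and Socs2 (1.001). The LIF receptor chain was thus at 12.0 against 6.66 CPM per kb of gp130 in AL, and at 80.1 against 9.72 in DR. The interferon gamma receptor chains were at 10.5 and 4.15 CPM per kb in AL, and at 45.7 and 4.07 in DR.

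**Figure D3:**
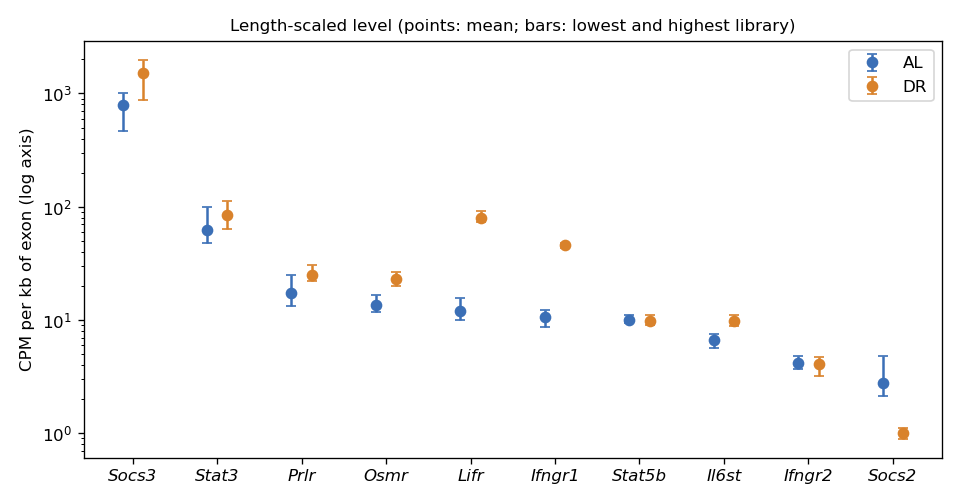
Level per kilobase of exon (vertical log axis, CPM per kb) of the 10 genes, ordered by their AL mean, in AL (blue) and DR (orange); points are means and bars run from the lowest to the highest library. Lifr and Ifngr1 leave the middle of the order in DR, where Lifr reaches the range of Stat3.

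Several of these genes lie side by side in RefSeq. Osmr and Lifr are neighbours on chromosome 15, where their levels differed by 0.77 and 2.74 (log2 fold change). Ifngr1 lies next to Il22ra2 on chromosome 10, a gene for a soluble receptor that traps IL-22. Il22ra2 ranged from 1.58 to 2.88 CPM across AL and from 23.0 to 31.9 CPM across DR (log2 scale: 3.71, SE 0.19; adjusted p = 1.34e-06 by edgeR), higher in 4 of 4 DR libraries. Ifngr2 lies next to Ifnar1, a type I interferon receptor chain, which did not pass either (0.18, edgeR adjusted p = 0.135). Il6st lies next to Il31ra, the IL-31 receptor, whose mean was 642 CPM under AL feeding and 890 CPM under DR (0.47, edgeR adjusted p = 0.17). Stat5b, Stat5a and Stat3 lie in a row on chromosome 11, and Stat5a was the one that passed: it rose from 30.3 ± 2.70 to 43.6 ± 4.70 CPM (SD, n = 5 and 4; 0.52, SE 0.10, edgeR adjusted p = 0.00172). The library kit does not mark strand, so reads of Prlr, Stat3 and Socs2 cannot be told apart from those of the overlapping Gm41268, Gm46295 and Gm33230.

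The other genes of the pathway, 128 in the tables and 103 tested, were not chosen by how they moved in this fit, although the lists were written with earlier results known. Of the 103, 27 were higher and 21 lower in DR, where 19% of all tested genes were higher and 21.7% were lower. The median log2 fold change of the 103 was 0.20, against -0.02 over all tested genes. The share that passed was 46.6%, where 40.7% of all tested genes passed. Without AL library 1 and DR libraries 1 and 2 the counts were 27 higher and 16 lower, where 13.7% of all tested genes were higher and 15.7% were lower. In that fit 29.4% of all tested genes passed, which is the share to set beside the following counts. By list, those past the threshold were then 2 of 4 kinases, 1 of 4 other STATs, 6 of 11 in the gp130 list, 3 of 8 in the interferon and IL-10 list, 3 of 13 growth hormone, prolactin and related receptors, 7 of 16 brakes, 10 of 24 STAT3 and STAT5 targets and 11 of 26 interferon gamma targets. Prolactin (Prl), interferon gamma (Ifng) and interferon beta (Ifnb1) had no count in any library, which allows up to 0.0816 to 0.113 CPM each, the level of 3 counts, for counting error only. Lif was detected at a low level and fell from 2.23 ± 0.524 to 0.905 ± 0.351 CPM (SD, n = 5 and 4), -1.30 on the log2 scale (SE 0.30; by edgeR, adjusted p = 0.0055), lower in 4 of 4 DR libraries than the AL mean. Lif had 15 to 88 counts per library, and its groups overlapped (AL library 5 at 1.32 CPM, DR library 1 at 1.33 CPM). The means of Lifr and Lif thus differed between the diets in opposite directions. Which of the sorted cells held the Lif transcripts was not tested.

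**Figure D4:**
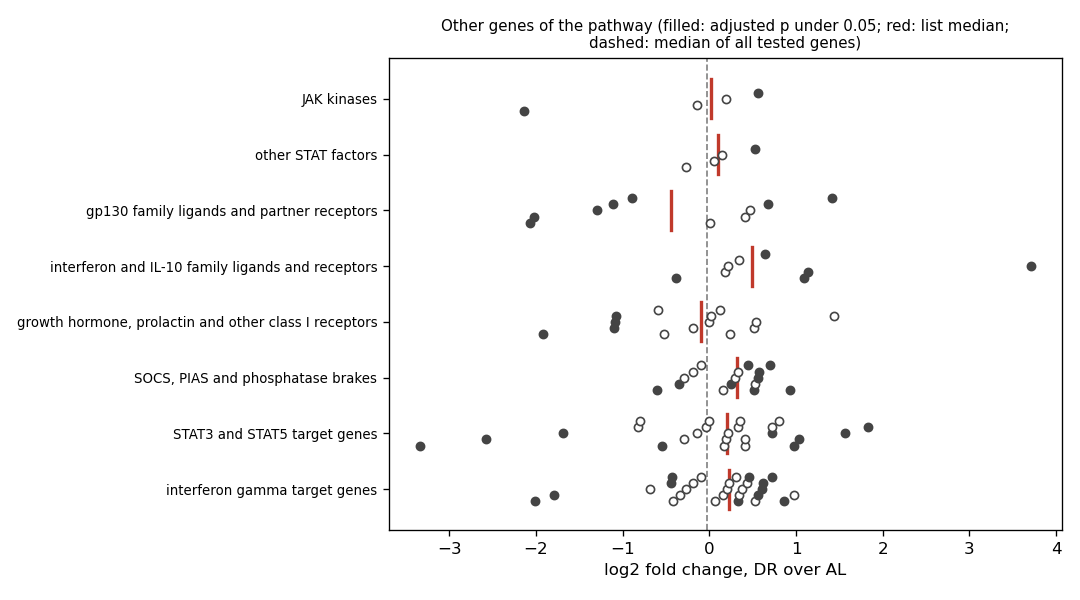
log2 fold change, DR over AL (horizontal axis), of every tested gene in 8 lists of pathway genes; filled points passed the threshold, red lines are list medians and the dashed line is the median of all tested genes. The gp130 list has its median at -0.44 and the interferon and IL-10 list at 0.49.

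Among the gp130 ligands and partner chains, 2 of 10 tested rose and 5 fell, where 19% of all tested genes were higher and 21.7% were lower. The chains that rose were Il6ra, the IL-6 receptor (14.7 ± 5.19 to 39.4 ± 10.3 CPM, SD, n = 5 and 4; 1.42, edgeR adjusted p = 0.00186), and Il11ra1, the IL-11 receptor (0.68, edgeR adjusted p = 0.000474). Those that fell included Lif and the ligand Ctf1, which signals through LIFR (-1.11, edgeR adjusted p = 0.000426). Clcf1 (-0.90, edgeR adjusted p = 0.00363) and Cntfr (-2.02, edgeR adjusted p = 0.00989) also fell and were named after their values were seen. The groups overlapped for Cntfr, at 1.54 (AL library 5) to 16.9 CPM in AL and 1.73 to 2.98 CPM in DR. Clcf1 is a ligand for Cntfr, which also works through LIFR and gp130. Not all ligands of this list fell, and not all of its receptor chains rose. Il6 (0.42, edgeR adjusted p = 0.584) and Il11 (0.012, edgeR adjusted p = 0.975) did not pass, nor did the receptor gene Il31ra.

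Of the 8 interferon and IL-10 family genes tested, 4 rose and 1 fell, where 19% of all tested genes were higher and 21.7% were lower. Besides Il22ra2, Il22ra1 (the signalling chain for IL-22; 1.10, edgeR adjusted p = 0.000382), Il28ra (interferon lambda; 0.64, edgeR adjusted p = 0.000919) and Il20ra, named after its value was seen (1.13, edgeR adjusted p = 0.0492; above the AL mean in 3 of 4 DR libraries), were higher. Ifnar2 was lower (-0.39, edgeR adjusted p = 0.0449), with an adjusted p of 0.0591 to 0.122 when any one of AL libraries 1 to 4 or DR libraries 2 to 4 was left out. The list had 3 genes past the threshold, not 5, in each of these cases and without the 3 libraries high in endothelial markers. Il22ra2, Il22ra1 and Il28ra kept their calls in all 18 other settings, so Il20ra lost its call there too. Beside Prlr, the growth hormone, prolactin and related receptor list had 4 of 14 tested genes lower (21.7% of all tested genes), and the other 10 did not pass. Csf2ra (12.2 to 3.23 CPM; -1.92, edgeR adjusted p = 7.43e-05) and Crlf2 (-1.09, edgeR adjusted p = 0.00325) fell, and Epor and Il2rg fell from mean levels under 1 CPM; Il2rg lost its call without AL library 1, 2 or 3 or DR library 1, 3 or 4 (edgeR adjusted p 0.0529 to 0.0738), and without the 3 libraries high in endothelial markers (0.18). The growth hormone receptor gene Ghr did not pass (17.8 ± 5.58 and 19.5 CPM; edgeR adjusted p = 0.667).

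Of the kinases, Jak2, which serves the prolactin and interferon gamma receptors, rose from 72.6 ± 10.1 to 107 ± 10.6 CPM (SD, n = 5 and 4; 0.56, edgeR adjusted p = 0.00247). Jak3, the kinase of the common gamma chain encoded by Il2rg, fell from 26.2 ± 6.48 to 5.94 ± 1.27 CPM (-2.14, edgeR adjusted p = 4.94e-05). Jak1 (0.19, edgeR adjusted p = 0.128; 0.0419 without AL library 4) and Tyk2 (-0.15, edgeR adjusted p = 0.343) did not pass.

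Among the other brakes, 7 of 16 tested genes rose and 2 fell, where 19% of all tested genes were higher and 21.7% were lower. The SUMO ligase genes Pias1 (0.70), Pias2 (0.58) and Pias4 (0.56) rose (edgeR adjusted p = 0.000161, 0.000147 and 0.000297), as did Ptpn1, a phosphatase that acts on JAK2 (73.6 ± 5.92 to 140 ± 22.8 CPM, SD, n = 5 and 4; 0.93, edgeR adjusted p = 0.00017). The SOCS family genes Cish and Socs1 did not pass. Cish, a STAT5 target, was at 77.8, 81.3, 86.6, 176 and 69.7 CPM in AL and 117, 48.1, 79.4 and 76.3 CPM in DR (-0.30, edgeR adjusted p = 0.461). Socs1 ranged from 8.92 to 21.3 CPM across AL and from 8.62 to 33.7 CPM across DR (0.53, edgeR adjusted p = 0.236). It passed in 1 of 18 other settings, without DR library 2 (0.79, edgeR adjusted p = 0.0448), and was 0.18 without DR library 1.

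Genes known as targets of these pathways passed about as often as genes at large, 37.5% of the STAT3 and STAT5 targets and 40.7% of the interferon gamma targets, where 40.7% of all tested genes passed. Of 24 tested STAT3 and STAT5 targets, 5 rose and 4 fell (median 0.20): the repressor gene Bcl6 rose from 182 ± 32.4 to 539 ± 61.2 CPM (SD, n = 5 and 4; 1.56, edgeR adjusted p = 2.32e-05) and Cebpd from 120 to 427 CPM (1.83, edgeR adjusted p = 0.000509), while the cyclin gene Ccnd1 fell from 102 to 31.9 CPM (-1.68, edgeR adjusted p = 1.58e-05) and Fgl1 from 1.12 to 0.189 CPM (-2.57, edgeR adjusted p = 0.000206). Ccnd1 also serves cell division, whose markers were lower in DR, and the part of that in the change was not tested. Of 27 tested interferon gamma targets, 7 rose and 4 fell (median 0.23). The GTPase genes Irgm1 (0.87, edgeR adjusted p = 0.000862) and Igtp (0.72, edgeR adjusted p = 0.00162) and the class I histocompatibility gene H2-K1 (0.56, edgeR adjusted p = 0.00362) rose, while the chemokine gene Cxcl10 fell (8.16 to 2.35 CPM; -1.79, edgeR adjusted p = 0.00129). Irf1 ranged from 94.8 to 260 CPM in the AL libraries and from 117 to 480 CPM in the DR libraries and did not pass (0.97, edgeR adjusted p = 0.0563).

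Beyond the diet difference, the genes varied between libraries of the same diet, which the choice of genes did not use. For 145 pairs of genes the deviations of the 9 libraries from their group means (log2 CPM) were correlated, with an exact permutation of libraries within each group (2880 arrangements) and adjustment over the pairs. None passed: the smallest adjusted p was 0.138, so the following are descriptions, and the pairs were singled out after their values were seen. Socs3 was low in AL library 1 and DR library 2 together with Fos (r = 0.96, rho = 0.80, exact permutation p = 0.00382 for r, adjusted p = 0.138), an early response gene, and r was 0.78 without the 2 libraries farthest from the median of Fos. Socs3 and Junb gave r = 0.96 and rho = 0.82 (exact permutation p = 0.00278 for r, adjusted p = 0.138), and Socs3 and Socs1 r = 0.90 and rho = 0.95 (exact permutation p = 0.00174, adjusted p = 0.138). Stat3 and Cish were both highest in AL library 4 and DR library 1 of their groups (r = 0.91, rho = 0.70, exact permutation p = 0.0153, adjusted p = 0.176), but r was 0.52 without the 2 farthest libraries, so the relation leans on these. Osmr followed the endothelial marker Pecam1 (r = 0.87, rho = 0.73, exact permutation p = 0.00347, adjusted p = 0.138), and Il6st did so too (r = 0.87, rho = 0.73, exact permutation p = 0.0111, adjusted p = 0.166). Without the 2 libraries farthest from the median of Pecam1, AL libraries 1 and 5, r was 0.78 for Osmr and 0.89 for Il6st. Without the 2 farthest from the median of Osmr, AL library 1 and DR library 1, r of Osmr and Pecam1 was 0.65. The part of endothelial RNA in the levels of Osmr and Il6st was not tested beyond the values without AL library 1 and DR libraries 1 and 2. Lifr and Socs3 ran opposite (r = -0.80, rho = -0.55, exact permutation p = 0.0215, adjusted p = 0.184), but r was -0.02 without the 2 farthest libraries, so the relation rests on AL library 1 and DR library 2.

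**Figure D5:**
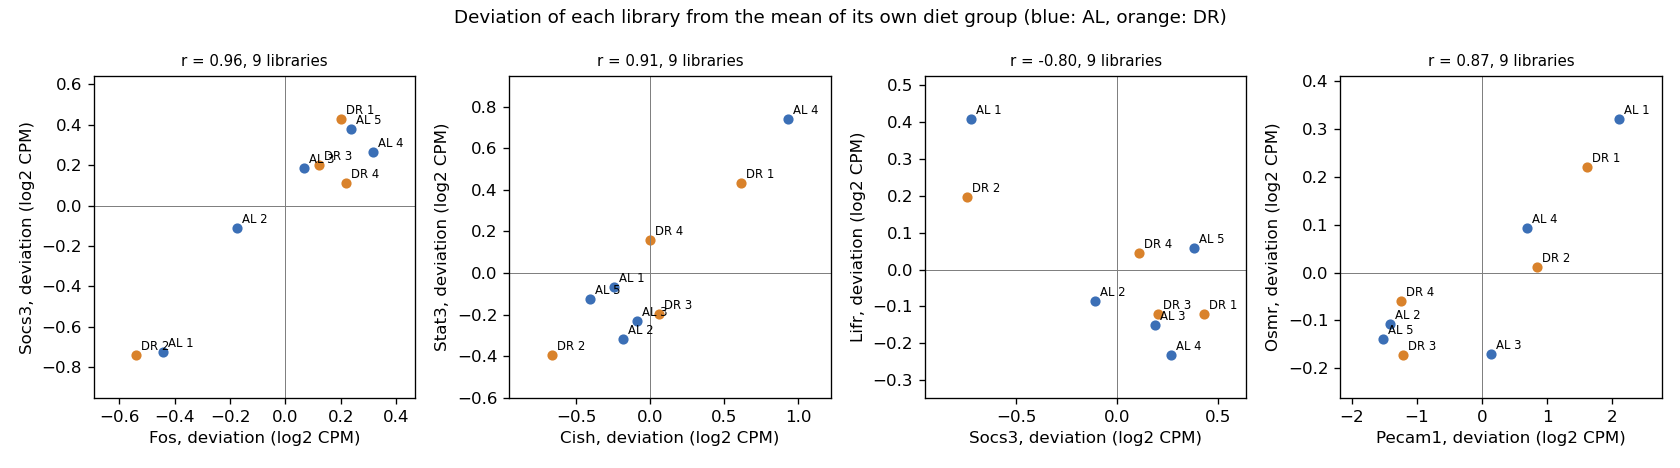
Deviation of each library from the mean of its own diet group (log2 CPM, both axes) for 4 gene pairs, AL in blue and DR in orange. Socs3 and Fos (r = 0.96) share low values in AL library 1 and DR library 2, Stat3 and Cish (r = 0.91) share high values in AL library 4 and DR library 1, Lifr and Socs3 (r = -0.80) rest on 2 libraries, and Osmr and Pecam1 (r = 0.87) are highest in AL library 1 and DR library 1; none passed adjustment.

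The genes whose pattern over the 9 libraries was most like that of Lifr, among 8090 with log2 CPM averaging 4 or more, were Arrdc3 (Pearson r of log2 CPM 0.996), Lpin1 (0.995) and Spock2 (0.994). For Prlr they were Hspa4l (0.978), Fam188a (0.970) and Atp2b4 (0.967), and for Socs3 Gcc1 (0.977), Cx3cl1 (0.965) and Mt1 (0.965). These coefficients include the difference between the diets, and are given as descriptions without a p.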

How the data were processed

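Bulge stem cell RNA (AL, 5 libraries; DR, 4) was sequenced as single reads of 51 cycles. The authors deposited raw counts of reads for each gene symbol, without normalization. The submitters' processing notes name FastQC 0.11.5, TopHat2 2.1.0, Bowtie, HTSeq 0.11.2 and mm9; annotation and strand setting: not given in the sources used here. Of 35012 lines, 6 name no gene (25.9% to 30.7% of reads) and were left out. The 16 within-group pairs of libraries had chi-square values of 24.6 to 110 per degree of freedom, so none was a copy.

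Counts were filtered (filterByExpr), scaled by TMM and tested with edgeR 4.0.16 (R 4.3.3; quasi-likelihood, diet alone, Benjamini-Hochberg, threshold 0.05); the script was tested on simulated data. Log2 fold changes are DR over AL, and levels are CPM. Alternatives were DESeq2 1.42.0, limma 3.58.1 (voom), other scalings and filters, a replicate block and leaving out libraries; one, leaving out 3 libraries high in endothelial markers, was chosen after seeing the data.

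The 10 genes and all lists were chosen with earlier results of these data known. Named were the 10 genes, up to 4 genes per list with the smallest p past the threshold, genes always reported (Jak1, Jak2, Tyk2, Stat5a, Cish, Socs1, Ghr, Il6ra, Lif and Ifng), and the 3 genes most like Lifr, Prlr and Socs3; others were named after their values were seen. Some genes under this rule are not reported here. Gene order and upstream sequences are from RefSeq (GRCm38.p6) and exon lengths from GENCODE (GRCm38); no coordinate of the mm9 build was used.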

Additional observations from a re-analysis of the deposited data

Results flagged for a closer look

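In 42 genes, the 10 and the named pathway genes, the highest or lowest library of each group was set against the rest of its group (Dixon's criterion), and 7 of 84 gene and group pairs stood apart. Chance alone gives about 1 in 20. AL library 4 stood apart for Stat3 (623 CPM, others 299 to 355), Socs2 (13.04 CPM, others 5.76 to 6.32) and Cish (176 CPM, others 69.7 to 86.6). AL library 2 stood apart for Csf2ra (16.6 CPM, others 10.2 to 11.9) and AL library 5 for Lif (1.32 CPM, others 2.31 to 2.57). In the DR group, library 4 stood apart for Jak2 (123 CPM, others 99.1 to 103) and Il22ra1 (33.3 CPM, others 40.6 to 41.7). AL library 4 also had the highest level of the melanocyte marker Dct (14.04 CPM, other AL libraries 2.71 to 6.67, DR libraries 0.9996 to 2.06). The summed melanocyte markers were instead highest in AL library 5 (231 CPM, of which Mitf 223), against 184 CPM (Mitf 159) in AL library 4. Summed markers of dividing cells were highest in AL library 4 (895 CPM), with AL library 2 at 873 CPM. The part of these in the other values was not tested.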

How the results depend on the processing

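Lifr (2.68 to 2.86), Il6st (0.47 to 0.60), Osmr (0.69 to 0.85), Ifngr1 (2.05 to 2.18), Socs2 (-1.69 to -1.19) and Socs3 (0.79 to 1.13) kept their side in all 18 other settings. Prlr passed in 10 of 18 and lost its call also with upper-quartile scaling (0.48). Over 42 genes, 719 of 753 gene and setting values kept direction and side; 24 fell below the threshold, 3 passed it and 7 changed sign. The sign changed for Ifngr2 (0.026, 0.071 and 0.0038 without AL library 3, DR library 1 or DR library 4, with a range of -0.084 to 0.071 over single libraries left out, and 0.049 without AL library 1 and DR libraries 1 and 2), Stat5b (0.005 without AL library 2; range -0.106 to 0.005), Cish (0.020 without AL library 4; range -0.53 to 0.020) and Ghr (-0.012 without AL library 5; range -0.012 to 0.28). The count of interferon and IL-10 genes past the threshold, 5, ran from 3 to 5 with 1 library left out and was 3 without AL library 1 and DR libraries 1 and 2. The count of growth hormone, prolactin and related receptors, 4, was 2 with a filter of at least 1 CPM in 4 libraries, since fewer low genes were tested. The causes were otherwise not tested. Ifnar2 lost its call in 9 settings (edgeR adjusted p 0.0591 to 0.122).

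With a replicate block, 3067 genes were higher and 3366 lower, and the 10 genes kept 6 higher and 1 lower. Same-numbered libraries correlated at 0.03 to 0.23 in their deviations, and 2 of 4 AL libraries correlated best with their own number. So few untested correlations cannot decide whether the numbers pair the samples, and the labels do not say. The number of libraries and the low counts of Lif, Epor, Il2rg and Fgl1 limit precision.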
